A study of Mus musculus with 15 samples.

Results

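Taurine synthesis from cysteine and taurine uptake were described here through 4 genes, Csad, Cdo1, Fmo1 and Slc6a6, taken by symbol from the 55984 genes of the count table. Hepatocytes were isolated from the livers of wild-type adult male C57BL/6JJcl mice and sorted by the fluorescence of the DNA dye Hoechst. The 2n-whole population held diploid cells and the 4n-whole population held all tetraploid cells, with 1 or 2 nuclei. 4n-top was the part of the tetraploid gate with the higher peak Hoechst signal, enriched for mononucleated cells, and 4n-bottom the part with the lower peak, enriched for binucleated cells. Neither fraction was pure, and 4n-top, sorted once, still held many binucleated cells. After sorting, diploid cells were centrifuged at a higher force and for longer than tetraploid cells. The part of this handling in the differences from 2n-whole was not tested. RNA of each sorted population was sequenced in bulk, and 15 libraries were analysed, 4 of each population except 4n-top with 3. The library labels number the subjects 1 to 4, here called mouse 1 to mouse 4, and 4n-top had no library of mouse 1. The study left that sample out because its RNA was of poor quality.

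Taurine is an amino sulfonic acid that the liver makes from cysteine. Cysteine dioxygenase, encoded by Cdo1, oxidizes cysteine to cysteine sulfinic acid, cysteine sulfinic acid decarboxylase, encoded by Csad, turns this into hypotaurine, and the flavin monooxygenase encoded by Fmo1 can oxidize hypotaurine to taurine. Slc6a6 encodes the sodium-dependent taurine carrier TauT. In the mouse liver much taurine is joined to bile acids, and taurine also serves as an osmolyte.

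Csad lies on the minus strand of chromosome 15 of GRCm39, from 102085432 to 102113498, and its merged exons span 5568 bases. Fmo1 lies on chromosome 1 from 162655471 to 162694185 on the minus strand, and Slc6a6 on chromosome 6 from 91660573 to 91736047 on the plus strand. Csad overlaps Zfp740, a zinc finger gene on the opposite strand, and Slc6a6 overlaps 6 noncoding or uncharacterized genes, 2 of them on its own strand. The strand setting of the counting was not given in the sources used here, so reads of these overlaps cannot be assigned with certainty.

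The DNA directly upstream of Csad is shown because Csad had the largest differences of the 4 genes. The 239 bases before the first annotated start were taken from the RefSeq promoter table of build GRCm38.p6 and placed by an exact match at chr15:102113499-102113737 of GRCm39. They are written 5′ to 3′ on the minus strand, all in lower case because none of the motifs searched was found in them. They lie within Zfp740, a gene on the opposite strand. Which of the 35 annotated transcript starts of Csad hepatocytes use was not examined.
Csad upstream: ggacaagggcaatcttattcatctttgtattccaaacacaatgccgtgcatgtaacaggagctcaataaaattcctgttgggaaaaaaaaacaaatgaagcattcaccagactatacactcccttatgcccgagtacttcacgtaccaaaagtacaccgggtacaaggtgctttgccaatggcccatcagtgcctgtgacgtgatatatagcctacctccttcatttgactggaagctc
Letters were searched on both strands of the 250 bases before each RefSeq start, over 32851 such windows. AGGTCA, a core of many nuclear receptor elements, was absent before the first Csad start and was present in 14.0% of all windows. CACGTG, an E-box, was present in 6.02%, TATAAA in 12.37%, GGGCGG, a GC box, in 32.7%, and TGACNNNGC, the core of the antioxidant element, in 10.2%. None of these lay in the window before the first Csad start, and GGGCGG lay 72 to 67 bases before a second RefSeq start. CAAGGTCA (1.33% of windows, overlapping AGGTCA), TGACGTCA (1.55%) and TTGCGCAA (0.164%) were searched too and were not found at either start.

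All 4 genes were well expressed. Their levels are given as CPM, the counts of a gene as a share of the library total after scaling by the trimmed mean of M-values (TMM), with the SD over mice. Per kilobase of merged exons, pooled over all annotated transcripts of a gene, the mean level in 2n-whole was 109 CPM for Cdo1, 15.0 for Fmo1, 14.5 for Csad and 13.2 for Slc6a6. In 4n-top the same order of genes did not hold, with 157 for Cdo1, 38.9 for Csad, 16.9 for Fmo1 and 12.7 for Slc6a6. On this scale Csad was near Fmo1 and Slc6a6 in 2n-whole and above both in 4n-top, and Cdo1 had the highest level in both populations. The lengths of the transcripts expressed were not measured, so different genes can be compared only roughly.

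Csad was higher in tetraploid than in diploid hepatocytes. It was chosen for its difference in 4n-whole against 2n-whole and in 4n-top against 4n-bottom, so its values are a description without a test. In 2n-whole, Csad was at 35.7, 96.1, 99.1 and 91.1 CPM in mice 1 to 4. In 4n-whole it was at 89.5, 209, 202 and 225 CPM. Within each mouse the 4n-whole level was 2.04 to 2.51 times that of 2n-whole, yet the populations overlapped, because 4n-whole of mouse 1 lay below 3 of the 4 diploid libraries.

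In 4n-bottom, Csad was at 41.2, 137, 146 and 128 CPM in mice 1 to 4. In 4n-top it was at 187, 257 and 206 CPM in mice 2, 3 and 4. All 3 4n-top libraries lay above every 4n-bottom library and every 2n-whole library, and no other pair of populations was separate for Csad. The share of all genes separated in this way was not counted, so this only describes a gene chosen for its difference. The means stood in the order 2n-whole (80.5 ± 30.0 CPM, SD, n = 4), 4n-bottom (113 ± 48.6, n = 4), 4n-whole (181 ± 62.0, n = 4) and 4n-top (217 ± 36.4, n = 3). Neighbours in this order overlapped in range. 4n-top has no library of mouse 1, the lowest mouse wherever it was sampled. Its place in the order and its separation from 4n-bottom and 2n-whole thus rest on unlike mice.

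**Figure D1:**
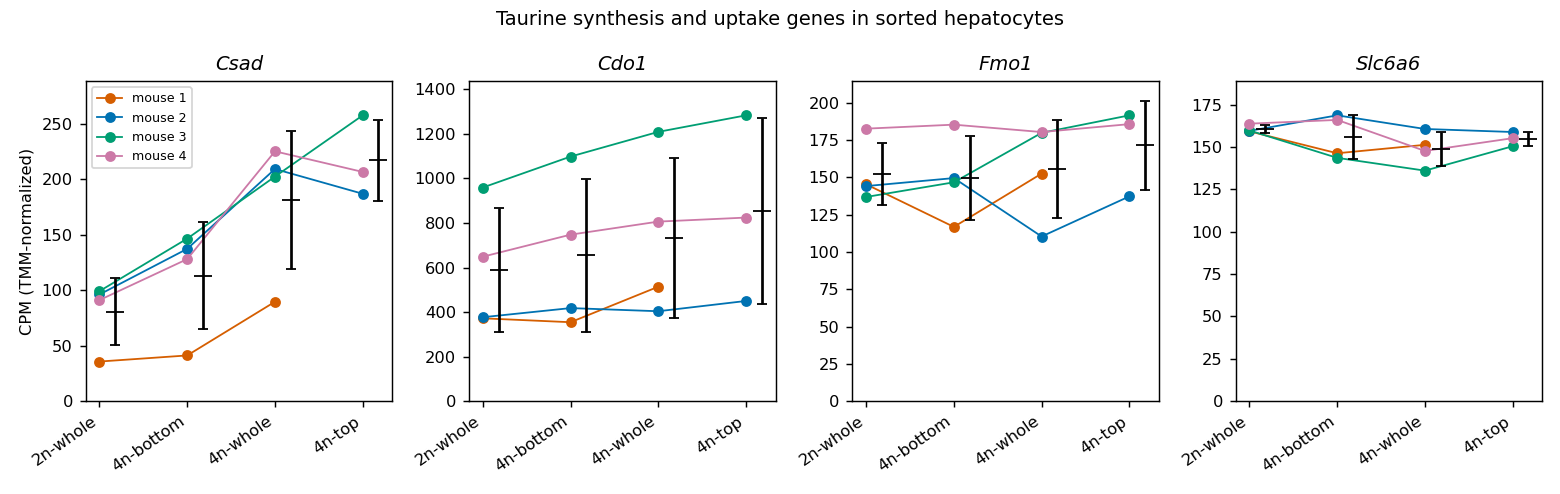
CPM (vertical axes, starting at 0) of Csad, Cdo1, Fmo1 and Slc6a6 in the 4 populations (horizontal axes), with 1 coloured line per mouse and the mean with SD beside the points in black. Csad climbs from 2n-whole to the right in each mouse as far as 4n-whole, with mouse 1 low throughout, Cdo1 is spread mainly between mice, and Slc6a6 is nearly flat.

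Within mice the differences of Csad were steadier than its levels. Mouse 1 was the lowest in all 3 populations in which it was sampled, and in 2n-whole the highest mouse had 2.77 times the level of the lowest. In a model with the mouse as replicate block, the fitted level in 4n-whole was 2.30 times that in 2n-whole (standard error 0.10 on the log2 scale), with a higher level in 4 of 4 mice. For 4n-top over 4n-bottom it was 1.64 times, a log2 fold change of 0.72 (standard error 0.11), higher in 3 of 3 mice by 1.36 to 1.76 times.

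The binucleated-enriched fraction stood between. For 4n-bottom over 2n-whole the fitted log2 change of Csad was 0.45 (0.10), with 1.15 to 1.48 times the level in 4 of 4 mice, and 1.17 (0.11) for 4n-top over 2n-whole in 3 of 3. For 4n-whole over 4n-bottom it was 0.75 (0.10), in 4 of 4 mice. Between 4n-whole and 4n-top it was 0.03 (0.11), with 2 of 3 mice higher in 4n-whole. In mice 2 and 4 the unfractionated tetraploid cells had more Csad than either fraction, so the 4n-whole value did not lie between those of its parts.

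**Figure D2:**
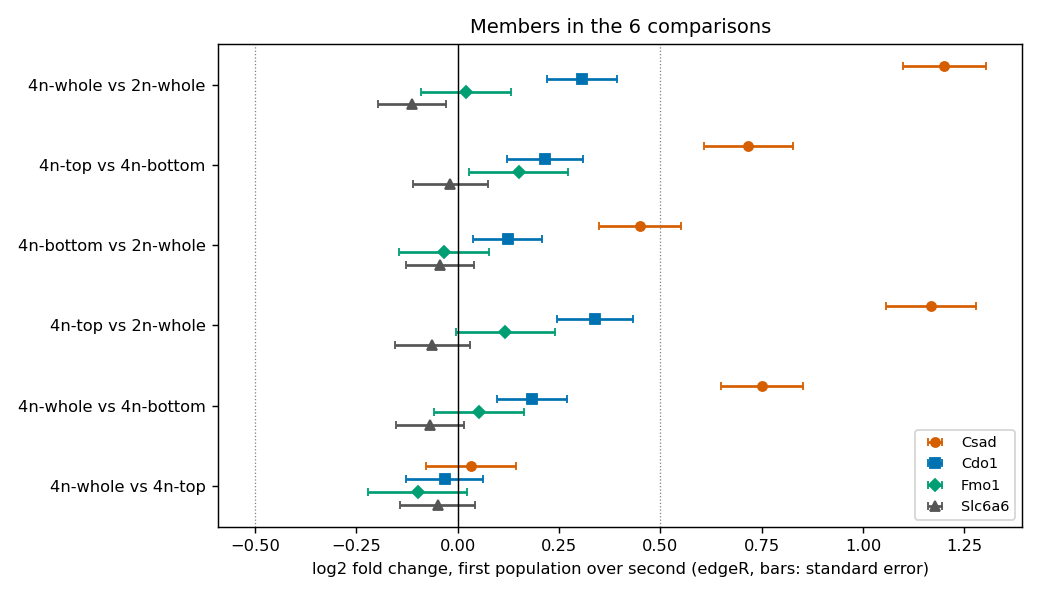
Log2 fold changes (horizontal axis) of the 4 genes in the 6 comparisons between populations (vertical axis), with standard errors as bars and dotted lines at the fold limit of 0.5. Csad lies clearly right of the other genes in 5 comparisons, and in 4n-whole with 4n-top all 4 genes lie near 0 with overlapping bars.

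The other 3 genes were included for their function. They were tested with the quasi-likelihood F test of edgeR on all 17488 genes that passed a filter on low counts, with p-values adjusted over all of them by the Benjamini-Hochberg method. All 4 members passed that filter. A gene was called when its adjusted p was under 0.05 and its absolute log2 fold change above 0.5. Of Cdo1, Fmo1 and Slc6a6, 0 were called in any comparison, where 3.47% of all genes were called in 4n-whole against 2n-whole and 0.0114% in 4n-top against 4n-bottom. In 4n-bottom against 2n-whole 0.463% were called, in 4n-top against 2n-whole 0.961%, in 4n-whole against 4n-bottom 0.00572% and in 4n-whole against 4n-top 0%. Of the 3 genes, only Cdo1 had an unadjusted p under 0.05, in 4 of the 6 comparisons, and DESeq2 called 0 of them as well.

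Cdo1, which feeds the pathway, lies on the minus strand of chromosome 18 from 46842652 to 46861627. Its means stood in the same order as those of Csad, at 589 ± 278 CPM in 2n-whole, 654 ± 342 in 4n-bottom, 733 ± 359.7 in 4n-whole (SD, n = 4 each) and 852 ± 417 in 4n-top (n = 3, without mouse 1). It was at 372, 377, 959 and 649 CPM in 2n-whole of mice 1 to 4. In 4n-whole it was at 514, 404, 1209 and 806 CPM. The spread between mice was much larger than the step between populations, and each mouse was higher in 4n-whole, by 1.07 to 1.38 times.

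The log2 fold change of Cdo1 for 4n-whole over 2n-whole was 0.31 (95% interval 0.13 to 0.48), and edgeR gave an adjusted p of 0.0322 with a fold under the limit. The size of this step varied little between settings, and its adjusted p varied widely. Leaving out mouse 1, 2, 3 or 4 gave 0.25, 0.37, 0.30 and 0.30, with adjusted p of 0.0889, 0.0182, 0.0767 and 0.223 in edgeR. Without the replicate block it was 0.32 (adjusted p = 0.817), and in edgeR without the filter 0.32 (adjusted p = 0.0069). DESeq2 gave 0.30 with the block (adjusted p = 0.0016) and 0.29 after ComBat-seq (adjusted p = 0.00011).

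In 4n-bottom, Cdo1 was at 355, 418, 1098 and 747.5 CPM in mice 1 to 4. In 4n-top it was at 450.0, 1283 and 824 CPM in mice 2 to 4. Each of these 3 mice had more in 4n-top, by 1.08 to 1.17 times. The log2 fold change was 0.22 (95% interval 0.02 to 0.41), with an adjusted p of 1 in edgeR. For 4n-top over 2n-whole it was 0.34 (95% interval 0.15 to 0.53, adjusted p = 0.0829 in edgeR, 3 of 3 mice). For 4n-bottom over 2n-whole it was 0.12 (95% interval -0.05 to 0.30), for 4n-whole over 4n-bottom 0.18 (0.01 to 0.36), and for 4n-whole over 4n-top -0.03 (-0.23 to 0.16).

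Fmo1, which acts on hypotaurine, had no direction shared by the mice between 2n-whole and 4n-whole. It was at 145, 144, 137 and 182 CPM in 2n-whole of mice 1 to 4. In 4n-whole it was at 152, 110.3, 179.7 and 180.2 CPM, higher in 2 mice and lower in 2. The log2 fold change was 0.02 (95% interval -0.21 to 0.25, adjusted p = 0.948 in edgeR).

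In 4n-bottom, Fmo1 was at 117, 149, 147 and 185 CPM in mice 1 to 4. In 4n-top it was at 137, 191 and 185.5 CPM in mice 2 to 4. The populations overlapped, and the log2 fold change for 4n-top over 4n-bottom was 0.15 (95% interval -0.10 to 0.40, adjusted p = 1 in edgeR), higher in 2 of 3 mice. The means were 152 ± 20.6 CPM in 2n-whole, 149 ± 28.0 in 4n-bottom, 156 ± 32.9 in 4n-whole (SD, n = 4 each) and 171 ± 29.8 in 4n-top (n = 3). In the remaining comparisons the log2 fold change ran from -0.10 to 0.12, and no interval reached 0.5 on either side.

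Slc6a6, the carrier for taurine uptake, varied least of the 4 in 2n-whole, where it was at 159.2, 159.5, 159.7 and 163.7 CPM in mice 1 to 4. In 4n-whole it was at 151, 161, 136 and 148 CPM, lower in 3 of 4 mice. The log2 fold change was -0.11 (95% interval -0.28 to 0.06, adjusted p = 0.507 in edgeR), which leaves out a change of 0.5 in either direction.

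In 4n-bottom, Slc6a6 was at 146, 169, 144 and 166 CPM in mice 1 to 4. In 4n-top it was at 159, 150.4 and 155 CPM in mice 2 to 4. The log2 fold change between these fractions was -0.02 (95% interval -0.21 to 0.17, adjusted p = 1 in edgeR). All 3 4n-top libraries lay just below all 4 2n-whole libraries, with a log2 fold change of -0.06 (95% interval -0.25 to 0.13, adjusted p = 0.865 in edgeR). The gap was small beside the spread within 4n-whole and 4n-bottom. The share of all genes separated in this way was not counted, and 4n-top lacks mouse 1. The means were 161 ± 2.14 CPM in 2n-whole, 156 ± 13.0 in 4n-bottom, 149 ± 10.2 in 4n-whole (SD, n = 4 each) and 155 ± 4.21 in 4n-top (n = 3).

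Around these 4 genes, a list of 78 other genes covered further taurine enzymes and carriers, bile acid conjugation, other Fmo genes, cysteine supply and use, glutathione, bile acid feedback and osmolytes, and 68 passed the filter. In 4n-whole against 2n-whole 4 were called, 3 higher and 1 lower, where 1.74% of all genes were called higher and 1.73% lower, with a median log2 fold change of 0.01 beside -0.01 over all genes. In 4n-top against 4n-bottom 0 were called and 5 had an unadjusted p under 0.05 in edgeR, as did 2.79% of all genes. DESeq2 with the block and no filter called 3 of the 78 there, where it called 7.64% of all genes. These 3 were Gadl1, Slc6a11 and Slc7a11, which are not among the 68 and had at most 6, 12 and 18 counts in a library. In 4n-bottom against 2n-whole 1 was called (1.47%) beside 0.463% of all genes, and in 4n-top against 2n-whole 4 (5.88%) beside 0.961%. In 4n-whole against 2n-whole 23 of the 68 had an unadjusted p under 0.05 in edgeR, beside 20.4% of all genes. The list was written with earlier results of these data known, so these shares only describe it.

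Of the other taurine enzymes, Ado, which makes hypotaurine from cysteamine, was at 10.3 ± 2.15 CPM in 2n-whole and 13.3 ± 1.15 in 4n-whole (SD, n = 4 each). Its log2 fold change was 0.37 (adjusted p = 0.153 in edgeR). Gadl1, an acidic amino acid decarboxylase related to Csad, did not pass the filter and had at most 6 counts in a library. Slc6a13, a carrier of the same family as Slc6a6, was at 143 ± 7.75 CPM in 2n-whole and 141 ± 16.3 in 4n-whole, with a fitted log2 change of -0.03 (adjusted p = 0.909). Among 14 tested genes of this list 0 were called in either of the main comparisons.

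Of the 4 genes of bile acid conjugation 0 were called in these comparisons. Baat, which joins taurine to bile acids, had log2 fold changes of -0.03 for 4n-whole over 2n-whole and 0.06 for 4n-top over 4n-bottom. Slc27a5, which activates bile acids for that step, had 0.11 and 0.06.

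The bile acid synthesis enzymes of the feedback list were higher in tetraploid cells. Cyp7a1, the rate-limiting enzyme of the classical route, was at 27.4 ± 16.9 CPM in 2n-whole and 72.8 ± 39.9 in 4n-whole, with a fitted log2 change of 1.54 (adjusted p = 4.8e-06 in edgeR). Cyp8b1, the sterol 12α-hydroxylase, was at 177 ± 31.5 and 313 ± 79.0 CPM, a log2 fold change of 0.81 (adjusted p = 9.9e-07), and it was also the gene called in 4n-bottom against 2n-whole (0.59, adjusted p = 0.00045). Cyp7a1 had 0.72 in 4n-bottom over 2n-whole (adjusted p = 0.0806 in edgeR), not called in the main fit but called in some other settings. In 4n-top over 2n-whole Cyp7a1 and Cyp8b1 had 1.48 and 0.89. Without the replicate block neither was called in 4n-whole over 2n-whole (adjusted p = 0.257 and 0.136 in edgeR). In 4n-top over 4n-bottom Cyp7a1 had 0.76 (adjusted p = 0.826) and Cyp8b1 0.30 (adjusted p = 1), neither called. The call of Cyp7a1 there depended on the setting. It was called at 0.75 without the filter (adjusted p = 5.5e-06), at 0.74 when only these populations were fitted (adjusted p = 0.0028) and at 0.94 without mouse 2 (adjusted p = 0.00073), all in edgeR. DESeq2 did not call it with the block (0.75, adjusted p = 0.214) or after ComBat-seq (0.77, adjusted p = 0.0518).

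On the side of cysteine supply, Slc3a1, a subunit of a carrier for cystine and dibasic amino acids, was lower. It was at 78.9 ± 12.5 CPM in 2n-whole and 45.1 ± 4.02 in 4n-whole, with a fitted log2 change of -0.80 (adjusted p = 4.5e-05 in edgeR), and it had -0.68 in 4n-top over 2n-whole (-0.51 without mouse 4, adjusted p = 0.236). The transsulfuration enzymes Cbs and Cth had 0.04 and -0.09 in 4n-whole over 2n-whole and were not called. Gnmt, which consumes methyl groups of S-adenosylmethionine, had 0.33 (adjusted p = 0.0497), under the fold limit.

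Enzymes that use cysteine or its products elsewhere were not called. Got1, an aspartate aminotransferase that can also act on cysteine sulfinic acid, had -0.03 and Gclc, which starts glutathione synthesis, 0.02 in 4n-whole over 2n-whole. Fmo5, another flavin monooxygenase, was at 1038 ± 167 CPM in 2n-whole and 835.5 ± 228 in 4n-whole, with a fitted log2 change of -0.33 (adjusted p = 0.0218 in edgeR), under the fold limit. Hspa1b, a heat shock gene with a near-identical copy that makes its counts uncertain, was called in 4n-whole over 2n-whole at 0.86 (adjusted p = 0.0146) and in 4n-top over 2n-whole at 1.09 (adjusted p = 0.0112), from levels of 8.34 ± 6.96 CPM in 2n-whole. The first call was lost without mouse 2 (0.77, adjusted p = 0.0663) or mouse 4 (0.82, adjusted p = 0.0615), and the second without mouse 3 (0.78, adjusted p = 0.113), all in edgeR.

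**Figure D3:**
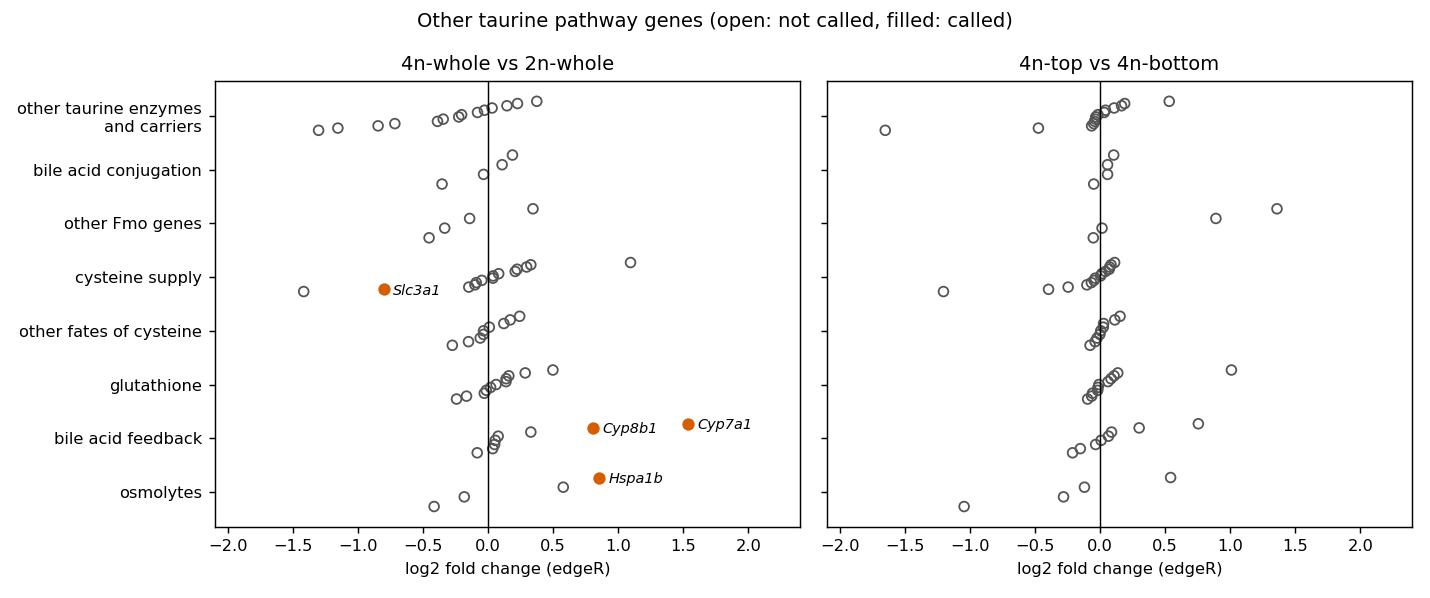
Log2 fold changes (horizontal axes) of the 68 tested pathway genes other than the 4 members, by list (vertical axis), for 4n-whole over 2n-whole (left) and 4n-top over 4n-bottom (right). Filled points met both thresholds, 4 on the left (Cyp7a1, Cyp8b1, Hspa1b and Slc3a1) and 0 on the right, and most open points lie near 0.

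The pattern of Csad over libraries was compared with that of 7371 genes whose mean log2 CPM was 3 or more, after removal of the mouse effect. Pearson's r over the 15 libraries was highest for Acot1, an acyl-CoA thioesterase (0.98), Por, which passes electrons to microsomal cytochromes P450 (0.96), Cyp1a2, a pericentral cytochrome P450 (0.95), Tenm3, a teneurin (0.94), and Cyp27a1, the sterol 27-hydroxylase of bile acid synthesis (0.94). Acot1 has near-identical copies, so its counts are uncertain. It was lowest for Sulf2, a heparan sulfate sulfatase (-0.98), Mup20, a major urinary protein whose reads may be shared with its relatives (-0.97), and Hsd17b6, a hydroxysteroid dehydrogenase (-0.95).

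Of the other members, Cdo1 had an r of 0.91 with Csad and rank 34 of 7371. Fmo1 had 0.29 and Slc6a6 -0.51, where the central 90% of genes lay between -0.68 and 0.74. The libraries share mice and populations, so r describes the 15 libraries only. Before the mouse effect was removed, r between Csad and Cdo1 was 0.57, and none of the 5 most alike genes was among the 5 found then. Leaving out any 1 mouse kept 2 of the 5.

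**Figure D4:**
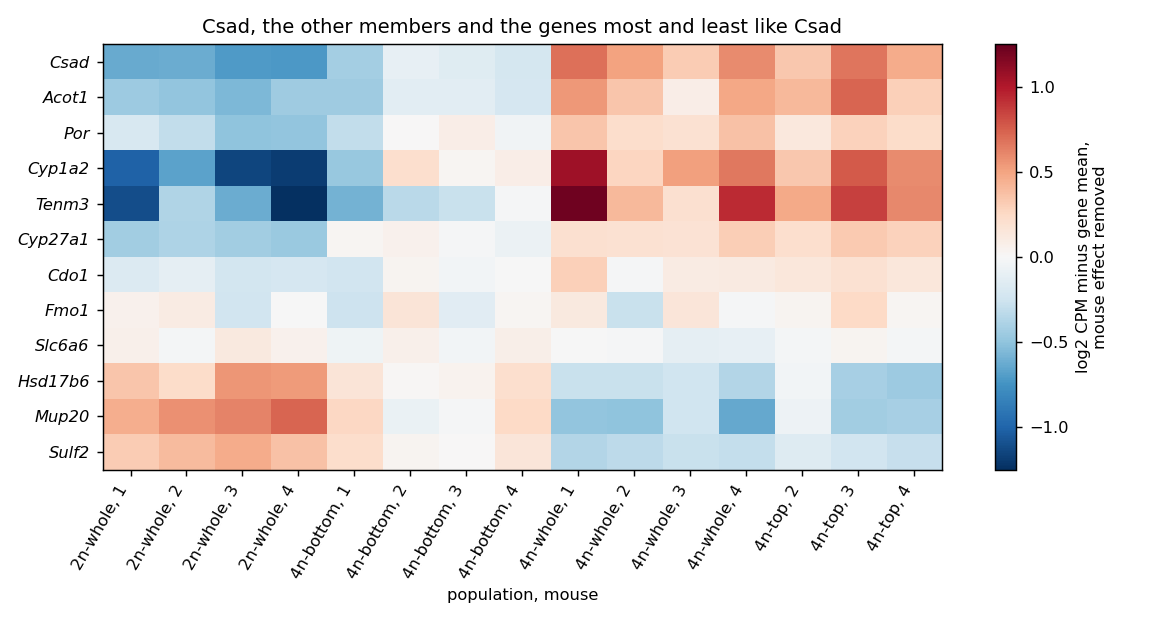
Log2 CPM minus the mean of the gene, with the mouse effect removed (colour, red higher), of Csad, the 5 genes most like it, the other members and the 3 least like it (rows) in 15 libraries (columns, population and mouse). Csad and the genes most like it are blue in 2n-whole and red in 4n-whole and 4n-top, the 3 least alike show the reverse, and Cdo1 follows Csad in paler colours.

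Zfp740, whose gene overlaps Csad, had log2 fold changes of 0.43 in 4n-whole over 2n-whole (adjusted p = 0.0512 in edgeR) and 0.24 in 4n-top over 4n-bottom. Among 10 neighbours of Csad by position, 0 were called in either comparison. Soat2, a cholesterol esterifying enzyme nearby, came closest with 0.46 (adjusted p = 0.0414) in 4n-whole over 2n-whole. These neighbours were chosen by position after the values of Csad were known.

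Hepatocytes differ along the axis from portal to central vein, and pericentral markers were also higher in tetraploid than in diploid cells. The summed level of 12 pericentral markers was 696 to 1093 CPM in 2n-whole, 1172 to 3785 in 4n-whole, 1148 to 2691 in 4n-bottom and 1145 to 4001 in 4n-top. Of these 12, 11 were called higher in 4n-whole than in 2n-whole, Cyp2e1 by a log2 fold change of 1.71 and Glul, the glutamine synthetase of cells next to the central vein, by 1.30. Of 11 periportal markers, 3 were called lower in 4n-whole than in 2n-whole and 0 higher, with a median log2 fold change of -0.27, and Cyp2f2 had -0.73 (adjusted p = 7.7e-05 in edgeR). Their summed level was 11821 to 15925 CPM in 2n-whole and 9739 to 13140 in 4n-whole. Between the fractions the markers did not move as 1 group. Glul was lower in 4n-top than in 4n-bottom, with a log2 fold change of -0.90 (adjusted p = 0.0499 in edgeR, 0.0714 without mouse 3 and 0.451 without mouse 4), the only called gene of the 12, and Cyp2e1 had 0.72 (adjusted p = 0.907).

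Within mice 1, 3 and 4, libraries with a higher summed pericentral level had more Csad. In mouse 1 the markers were at 696, 1206 and 3193 CPM in 2n-whole, 4n-bottom and 4n-whole, with Csad at 35.7, 41.2 and 89.5. In mouse 3 they were at 1093, 2311, 3453 and 4001 CPM in 2n-whole, 4n-bottom, 4n-whole and 4n-top, with Csad at 99.1, 146, 202 and 257. In mouse 4 they were at 1093, 2691, 3785 and 3572 CPM in the same populations, with Csad at 91.1, 128, 225 and 206. Csad and the summed markers had the same order of libraries in each of these mice. Csad was chosen for its differences between these populations, and the share of all genes with this order was not counted. The sum is led by a few cytochromes P450. In 4n-top Cyp2e1 had a mean of 1425 CPM, Cyp2c29 433 and Cyp1a2 384, beside 65.2 for Glul (n = 3 each). In mouse 2 the markers were at 784, 1148, 1172 and 1145 CPM, nearly equal in the tetraploid libraries, with Csad at 96.1, 137, 209 and 187. In a bulk population a larger share of pericentral cells and more Csad RNA per cell cannot be told apart.

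**Figure D5:**
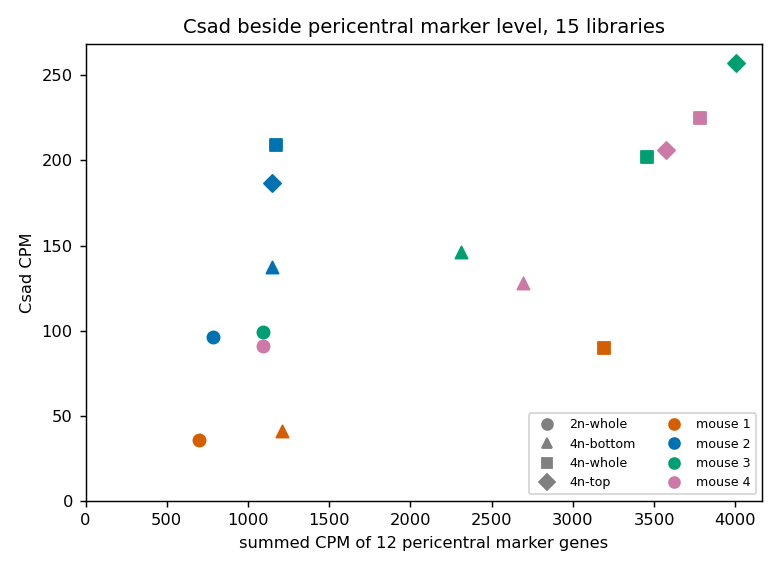
Csad CPM (vertical axis) against the summed CPM of 12 pericentral marker genes (horizontal axis) in 15 libraries, with symbols for populations and colours for mice. The tetraploid libraries of mouse 2 stand one above the other between 1145 and 1172 CPM, and in mice 1, 3 and 4 the points climb to the right, those of mouse 1 lying lower.

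Markers of other cells were low. Summed over each list, endothelial markers were at 3.51 to 32.3 CPM, Kupffer cell markers at 0.374 to 6.67, stellate cell markers at 1.99 to 6.12 and lymphocyte markers at 0 to 0.616, against 74019 to 102258 for hepatocyte markers. Cholangiocyte markers were at 34.6 to 47.4 CPM in 2n-whole and at most 32.0 in the tetraploid populations. The share of counts from mitochondrial genes was 20.5% to 26.2% in 2n-whole, 8.84% to 18.5% in 4n-whole, 12.2% to 23.6% in 4n-bottom and 11.9% to 13.0% in 4n-top. Leaving out the mitochondrial genes changed no direction or call of the 4 genes, and the part of the pericentral, periportal and cholangiocyte marker levels in the results was not tested.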

How the data were processed

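RNA was sequenced from 15 libraries of sorted hepatocytes, with total counts of 22049498 to 42096421. The authors used STAR for alignment to GRCm39 and featureCounts for counting, and deposited raw counts per gene, not normalized. The submitters' processing notes name STAR 2.7.11a and Subread. The annotation, strand setting and handling of read pairs in counting were not given in the sources used here. Among counts from 1 to 10, 74.2% to 81.4% per library were even, so counts may stand for fewer fragments.

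In R 4.3.3, counts of all 15 libraries were fitted with edgeR 4.0.16, using TMM factors, the default filter (minimum count 10, minimum total 15), and terms for population and mouse (the replicate block). The study adjusted mouse differences with ComBat-seq and tested with DESeq2. This was run as an alternative (sva 3.50.0, DESeq2 1.42.0), beside fits without the block, the filter or a mouse. Pairing by mouse comes from the subject number in the labels. Over 21 pairs of libraries with the same number, residual correlations were 0.0845 to 0.227, and 20 were above 0.1. Pairs with different numbers were not set beside them, so these values do not test the pairing. The test was tried on simulated data first. Likeness was taken on log2 CPM (prior count 2), from which limma 3.58.1 had removed the mouse effect. Positions came from GENCODE M39.

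The members, gene lists and tests were chosen with earlier results of these data known. Named were the 4 members, 10 set pathway genes, up to 6 further called list genes a comparison by p-value, the 5 genes most and 3 least like Csad, and zonation landmarks. Gnmt, Slc6a11, Slc7a11 and the neighbours of Csad were added after values were seen.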

Additional observations from a re-analysis of the deposited data

Results flagged for a closer look

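In 51 groups of 4 libraries, the gap of the extreme library to its nearest neighbour was set against the range of the group, and 4 exceeded the 95% critical value of Dixon's test. Chance alone flags about 5% of such groups. Csad in 2n-whole had a ratio of 0.873, with mouse 1 lowest at 35.7 CPM and the next library at 91.1. Csad in 4n-whole had 0.832, again with mouse 1 lowest, at 89.5 CPM, and the next at 202. Slc6a6 in 2n-whole had 0.891, with mouse 4 at 163.7 CPM beside 159.7, a small step within a tight group. Slc3a1 in 4n-bottom had 0.864, with mouse 4 highest at 77.7 CPM and the next at 61.9.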

How the results depend on the processing

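Of 359 values recomputed under alternative settings, 320 counted as unchanged. They kept their direction and side of the thresholds, moved within the replicate spread (Csad) or, for counts of genes, stayed within a set ratio. Without the replicate block, Csad had log2 fold changes of 0.94 (4n-top over 4n-bottom), 1.43 (4n-top over 2n-whole) and -0.26 (4n-whole over 4n-top). 4n-top lacks mouse 1, the mouse with the lowest Csad. Without a fold limit, Cdo1 at 0.31 in 4n-whole over 2n-whole would be called. Leaving out 1 mouse turned values near 0: Fmo1 ranged from -0.10 to 0.14 (4n-whole over 2n-whole), -0.080 to 0.051 (4n-bottom over 2n-whole), -0.031 to 0.18 (4n-top over 2n-whole) and -0.052 to 0.22 (4n-whole over 4n-bottom), Slc6a6 from -0.055 to 0.0097 (4n-top over 4n-bottom) and Cdo1 from -0.087 to 0.016 (4n-whole over 4n-top). The number of other pathway genes called changed more. Without the replicate block it was 1 in 4n-whole, 0 in 4n-bottom and 0 in 4n-top, each against 2n-whole. DESeq2 without a filter gave 7, 2 and 7 there, 3 in 4n-top against 4n-bottom, 4 in 4n-whole against 4n-bottom and 1 in 4n-whole against 4n-top, in fits that called 7.00% to 11.7% of all genes, and many of these calls were Gadl1, Slc6a11 and Slc7a11, which have few counts. edgeR without the filter gave 2 in 4n-bottom against 2n-whole, 1 (Cyp7a1) in 4n-top against 4n-bottom and 2 in 4n-whole against 4n-bottom. ComBat-seq gave 2 in 4n-bottom against 2n-whole and 2 in 4n-whole against 4n-bottom, and fitting 2 populations alone gave 2 in 4n-bottom against 2n-whole and 1 in 4n-top against 4n-bottom. Leaving out 1 mouse gave 1 to 2, 0 to 1 and 0 to 2 in these 3 comparisons. The cause was not tested. Of the 5 genes most like Csad, 0 were shared when the mouse effect was kept and 2 to 2 when 1 mouse was left out. Each comparison rested on 3 or 4 mice.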
